A study of Mus musculus with 2 samples.

Results

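Glycolysis and the citric acid cycle were followed through 42 genes: 16 of glycolysis, 7 that carry pyruvate into the mitochondrion and turn it into acetyl-CoA, 12 of the cycle itself, and 7 cytosolic enzymes and mitochondrial carriers linked to it. They were picked by name as enzymes of these pathways, with earlier results of these data known. All 42 were matched among 21461 nuclear protein-coding genes with a symbol. RNA came from 2 areas of layer V (layer 5) of the mouse cerebral cortex, replicate 1 and replicate 2. Laser capture took 8000 square microns for each, which the labels enter as 50 cells, and a Smart-seq type protocol made the library. The animal was an untreated, wild-type male of the C57Bl6 strain (B6NCrl in the source label) aged 8 months. Both libraries carry the same donor, so they were taken as areas of 1 mouse, each a mixture of cells although the title speaks of single cells. With 1 group, no conditions could be contrasted, and each SD is taken over the areas. An exact two-sided sign-flip test over 2 libraries cannot go below p = 0.5, and no test was made.

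In glycolysis, cytosolic enzymes split glucose into pyruvate with a small gain of ATP and NADH. Pyruvate is either reduced to lactate or carried into the mitochondrion, where the pyruvate dehydrogenase complex makes acetyl-CoA and the citric acid cycle oxidises it, passing electrons to the respiratory chain. Neurons are known to rely mostly on oxidative metabolism, and the malate-aspartate shuttle brings the electrons of cytosolic NADH into their mitochondria. Many steps are served by more than 1 gene, and the isozymes differ in regulation and in the cell types that favour them.

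Pyruvate kinase makes pyruvate, and its gene Pkm yields an M1 or an M2 form by including one or the other of a pair of coding exons of 167 bases each. The exons are shown because the isoform result below rests on them. The M1 exon lies at chr9:59675029-59675195 and the M2 exon at chr9:59675568-59675734, both on the plus strand of mm10. Sequences are written 5′ to 3′ from GENCODE M21 transcripts, with capitals at the 64 positions where the exons differ. The other 103 positions, 61.7%, are the same.
Pkm M1 exon: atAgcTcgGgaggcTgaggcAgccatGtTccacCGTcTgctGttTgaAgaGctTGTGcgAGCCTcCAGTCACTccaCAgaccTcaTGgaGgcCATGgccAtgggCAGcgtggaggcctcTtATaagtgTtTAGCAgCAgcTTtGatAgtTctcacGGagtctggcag
Pkm M2 exon: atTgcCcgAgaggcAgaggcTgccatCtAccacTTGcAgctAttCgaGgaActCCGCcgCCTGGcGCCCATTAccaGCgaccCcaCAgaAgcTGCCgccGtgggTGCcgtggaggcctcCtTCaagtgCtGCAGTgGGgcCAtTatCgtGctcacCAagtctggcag

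A second pair of sequences is shown because the level of a member can depend on how reads were divided between them. Mpc1, a subunit of the carrier that lets pyruvate into the mitochondrion, lies on chromosome 17 (8282904 to 8297661, plus strand), and its processed copy Mpc1-ps lies on chromosome 12. The 330 coding bases of Mpc1 and the copy differ at 1 base. The first 81 bases hold that base, in capitals, and in the copy they span chr12:110858814-110858894 on the minus strand.
Mpc1: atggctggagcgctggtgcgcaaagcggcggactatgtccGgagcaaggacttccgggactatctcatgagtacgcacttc
Mpc1-ps: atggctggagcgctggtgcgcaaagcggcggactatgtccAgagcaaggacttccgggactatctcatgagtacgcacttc

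Replicate 1 held 26059117 expected counts and replicate 2 held 28276843. Spike-in RNA took 7.19% of the counts in replicate 1 and 7.94% in replicate 2, and mitochondrially encoded genes took 5.77% and 5.08%. All 7 layer 5 markers reached 1 TPM in both areas, Pcp4, a calmodulin-binding peptide, being the highest at 2922 and 3599 TPM (transcript abundance scaled for length and library size). The areas differed in other cell types. The 6 parvalbumin interneuron markers were all higher in replicate 1, summing to 1299 TPM there and 222 TPM in replicate 2, and 7 of 8 microglial markers were higher in replicate 1 (292 and 109 TPM). The 5 somatostatin interneuron markers were all lower in replicate 1 (235 and 3376 TPM), as were the 7 oligodendrocyte markers (545 and 943 TPM). Astrocyte markers summed to 1270 TPM in replicate 1 and 1553 TPM in replicate 2 but were divided. Of 8 with a mean of at least 1 TPM, 3 were higher in replicate 1 and 5 lower. Erythrocyte markers were lower in replicate 1 in 4 of 5 cases (16.0 and 586 TPM), and 4 of 5 endothelial markers were higher there (113 and 51.3 TPM). All 7 pan-neuronal markers (8147 and 9583 TPM) and 6 of 7 excitatory neuron markers (1409 and 1619 TPM) were lower in replicate 1. No marker of these lists was at 0 in both areas, and fewer cells of a type cannot be told apart from less RNA per cell.

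Transcripts of the pathway were present almost without gaps, and their levels spanned a wide range. Of 42 members, 41 reached 1 TPM in both areas, the exception being Hk2. The same 41 had a mean of at least 1 TPM, beside 11828 of all 21461 nuclear protein-coding genes with a symbol. The members together held 1.75% of all TPM in replicate 1 and 1.77% in replicate 2, and their median was 195 and 175 TPM. By mean TPM, 9 of them ranked in the top 100 nuclear protein-coding genes, 12 had at least 500 TPM, and 4 had under 20 TPM. Glycolytic genes had a median of 478 and 490 TPM, cycle genes 135 and 139 TPM, pyruvate entry genes 123 and 120 TPM, and cytosolic and shuttle genes 90.1 and 81.3 TPM, in replicate 1 and replicate 2 in that order. From Aldoa at the top to Suclg2, the lowest of the 41, mean TPM differed 399-fold. Neighbours in the order of mean TPM were called apart where both libraries of the higher gene exceeded both of the lower, and this held for 21 of 41 neighbouring pairs.

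**Figure D1:**
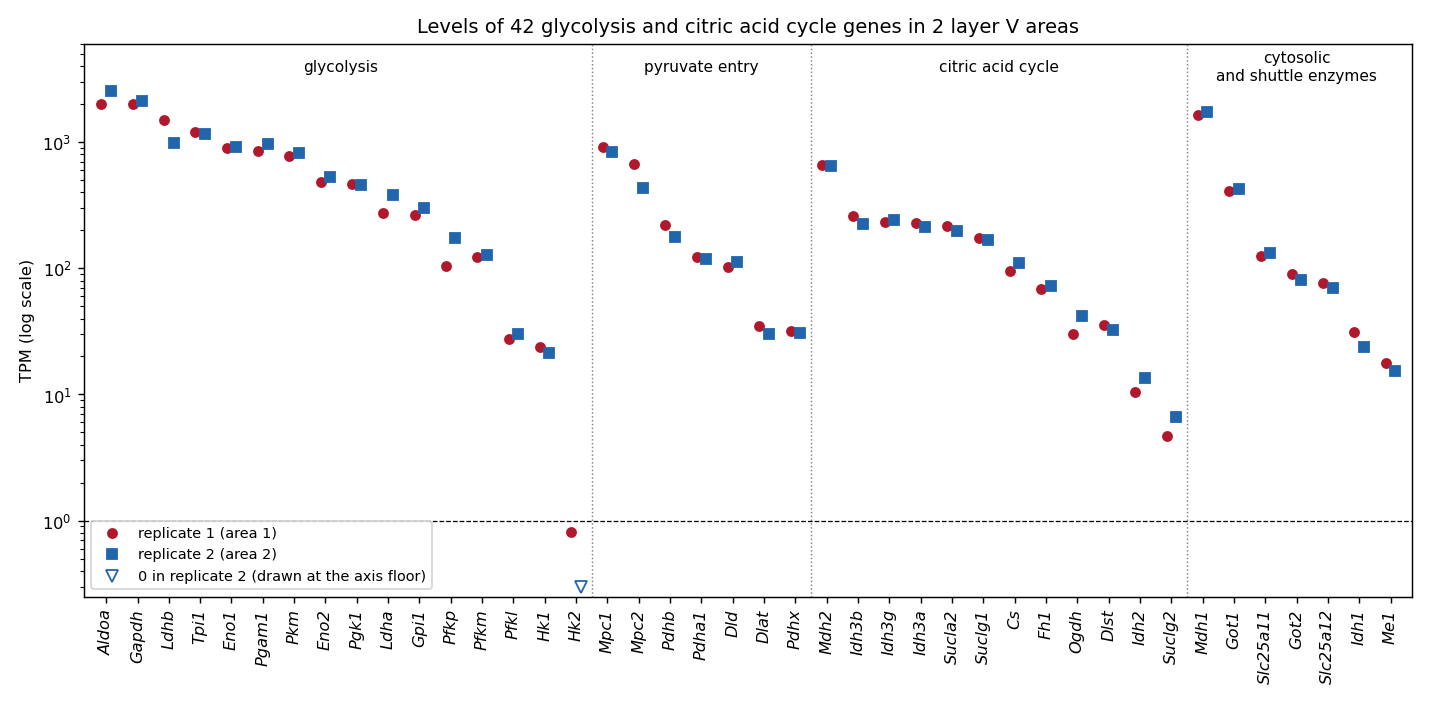
TPM on a log scale (y axis) of the 42 members (x axis), ordered by mean TPM within 4 groups, with replicate 1 as red circles and replicate 2 as blue squares; the dashed line is 1 TPM and the open triangle is the value of 0 of Hk2 in replicate 2. Points of the 2 areas nearly coincide for most genes and stand apart for Ldhb, Pfkp and Mpc2.

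Hexokinase, which traps glucose in the cell as glucose 6-phosphate, had the lowest level of any glycolytic step. Hk1, the form bound to mitochondria and typical of brain (ENSMUSG00000037012.14, chromosome 10, 62268855 to 62379908), had 23.8 TPM in replicate 1 and 21.5 TPM in replicate 2. Hk2, the insulin-responsive form of muscle and fat, had 39 counts (0.81 TPM) in replicate 1 and 0 counts in replicate 2. Against the floor of 3 counts that a count of 0 allows, Hk2 was at least 14.1-fold higher in replicate 1. The 95% counting interval of the ratio, which also covers the error of the 39 counts, begins at 10.9-fold, and the deposited intervals around the posterior mean, 0.485 to 1.60 TPM in replicate 1 and 0.0163 to 0.499 TPM in replicate 2, just overlapped. Hk1 thus held 96.7% of the summed TPM of the pair in replicate 1 and all of it in replicate 2. Among the other hexokinases, Hkdc1 had 0.87 TPM in replicate 1 and 2.76 TPM in replicate 2, while Hk3 had 0 and 2 counts.

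The next steps rose steeply in level. Gpi1, which isomerises glucose 6-phosphate to fructose 6-phosphate, had 263 TPM in replicate 1 and 302 TPM in replicate 2. Phosphofructokinase, the main control point of glycolysis, is built from muscle (Pfkm), liver (Pfkl) and platelet (Pfkp) subunits, which summed to 254 and 331 TPM. Pfkm was steady at 122 TPM in replicate 1 and 128 TPM in replicate 2. Pfkl was lower, at 27.4 TPM in replicate 1 and 30.2 TPM in replicate 2. Pfkp (ENSMUSG00000021196.9, chromosome 13, 6579768 to 6648777, minus strand) had 105 TPM in replicate 1 and 173 TPM in replicate 2, the largest log2 ratio by size among the 41 members on the TPM scale. With CPM or TMM-scaled counts Ldhb and Mpc2 exceeded it. By TPM the order of the subunits differed between areas: in replicate 1 Pfkm held 48.1% and Pfkp 41.1% of the family's TPM, and in replicate 2 Pfkm held 38.5% and Pfkp 52.3%. The 95% counting intervals of the Pfkp share, exact Clopper-Pearson intervals carried to the per-length scale, ran from 40.4% to 41.9% in replicate 1 and from 51.7% to 53.0% in replicate 2. The change of order was lost when counts were divided by the length of each gene's longest coding transcript, a setting chosen after seeing the data: Pfkm then led in both areas, with 98.9 and 98.5 CPM per kilobase against 61.8 and 93.6 for Pfkp. Reads carry no molecular identifiers, so all such intervals cover counting error only.

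The lower part of glycolysis held the most abundant members. Aldoa, the aldolase that splits fructose 1,6-bisphosphate (ENSMUSG00000030695.9, chromosome 7, 126795234 to 126800751), had 2001 TPM in replicate 1 and 2523 TPM in replicate 2. Aldoc, the brain aldolase that astrocytes favour, had 437 and 519 TPM, so that Aldoa held 82.1% of the pair in replicate 1 and 82.9% in replicate 2. Gapdh, which oxidises glyceraldehyde 3-phosphate and makes NADH, had 2022 TPM in replicate 1 and 2102 TPM in replicate 2, but the areas did not separate it from Aldoa. Tpi1, which interconverts the triose phosphates, followed at 1207 and 1157 TPM.

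Pgk1, which makes the pathway's first ATP, had 468 TPM in replicate 1 and 454 TPM in replicate 2, while Pgk2, its testis form, had 0 counts in both. Pgam1, the mutase that moves the phosphate of 3-phosphoglycerate, had 844 and 968 TPM, against 26.5 and 21.4 TPM for the muscle form Pgam2. Enolase makes phosphoenolpyruvate and has a ubiquitous form, Eno1, and a neuronal form, Eno2. Eno1 had 902 TPM in replicate 1 and 918 TPM in replicate 2. Eno2, often used as a neuronal marker, had 487 TPM in replicate 1 and 525 TPM in replicate 2. Eno1 held 64.9% of the pair's TPM in replicate 1 and 63.6% in replicate 2, so the ubiquitous form was the more abundant in both areas, while the muscle form Eno3 had 1.65 and 1.54 TPM.

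Pkm had 778 TPM in replicate 1 and 819 TPM in replicate 2, while Pklr, the liver and red cell pyruvate kinase, had 0 counts in both. The deposited tables list 2 Pkm transcripts, and the exons printed above were assigned to them by transcript identifier from M21. The model of the M1 transcript is 2432 bases in the deposited tables and 2041 bases in M21, so its exon content in the deposited annotation was not read directly. The transcript with the M1 exon took 98.1% of the gene's expression in replicate 1 and 98.8% in replicate 2, a mean of 98.5% ± 0.46 (SD, n = 2). That with the M2 exon had 14.5 TPM in replicate 1 and 9.89 TPM in replicate 2. The deposited intervals around its posterior mean, 11.1 to 17.1 TPM and 7.47 to 12.4 TPM, overlapped. M1, the form known from differentiated tissues such as muscle and brain, was thus nearly the whole of the Pkm signal, and the M2 levels of the areas were not separated.

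Lactate dehydrogenase interconverts pyruvate and lactate, and its heart subunit Ldhb and muscle subunit Ldha differed between the areas in opposite directions. Ldhb (ENSMUSG00000030246.7, chromosome 6, 142490249 to 142507957) had 1485 TPM in replicate 1 and 986 TPM in replicate 2. Its counts, scaled to library totals, were 1.58-fold higher in replicate 1 (95% counting interval 1.56 to 1.61). Ldha (ENSMUSG00000063229.10, chromosome 7, 46841475 to 46855627) had 276 TPM in replicate 1 and 379 TPM in replicate 2, a count ratio of 0.757 (0.737 to 0.778). Ldhb led in both areas, with 84.3% of the pair's TPM in replicate 1 (counting interval 84.0% to 84.6%) and 72.2% in replicate 2 (71.8% to 72.6%). The testis form Ldhc had 0 counts in both areas.

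Pyruvate enters the mitochondrion through a carrier of Mpc1 and Mpc2, and both were far more abundant than the dehydrogenase that uses it. Mpc1 had 917 TPM in replicate 1 and 843 TPM in replicate 2. Mpc2 (ENSMUSG00000026568.6, chromosome 1, 165460637 to 165481214) had 670 TPM in replicate 1 and 436 TPM in replicate 2. Its scaled counts were 1.58-fold higher in replicate 1 (1.54 to 1.63). The Mpc1 share of the pair was 57.8% in replicate 1 and 65.9% in replicate 2. These subunits act as a pair, yet the counting intervals of that share, 57.2% to 58.4% in replicate 1 and 65.3% to 66.5% in replicate 2, did not overlap.

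The pyruvate dehydrogenase complex, which makes acetyl-CoA, was measured through its 5 gene products. The E1 subunits Pdha1 and Pdhb had 123 and 219 TPM in replicate 1 and 120 and 176 TPM in replicate 2. Pdhb was 64.1% of the pair in replicate 1 and 59.6% in replicate 2 by TPM, but Pdha1 had more of the counts, 52.4% and 57.4%, its transcript being the longer. Dlat, the E2 core enzyme, had 34.9 TPM in replicate 1 and 30.0 TPM in replicate 2, while Pdhx, the protein that ties E3 to that core, had 32.0 and 30.5 TPM. Dld, the E3 enzyme that other dehydrogenase complexes share, had 102 TPM in replicate 1 and 112 TPM in replicate 2. In both areas the E1 and E3 genes thus stood above the E2 core and its binding protein.

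**Figure D2:**
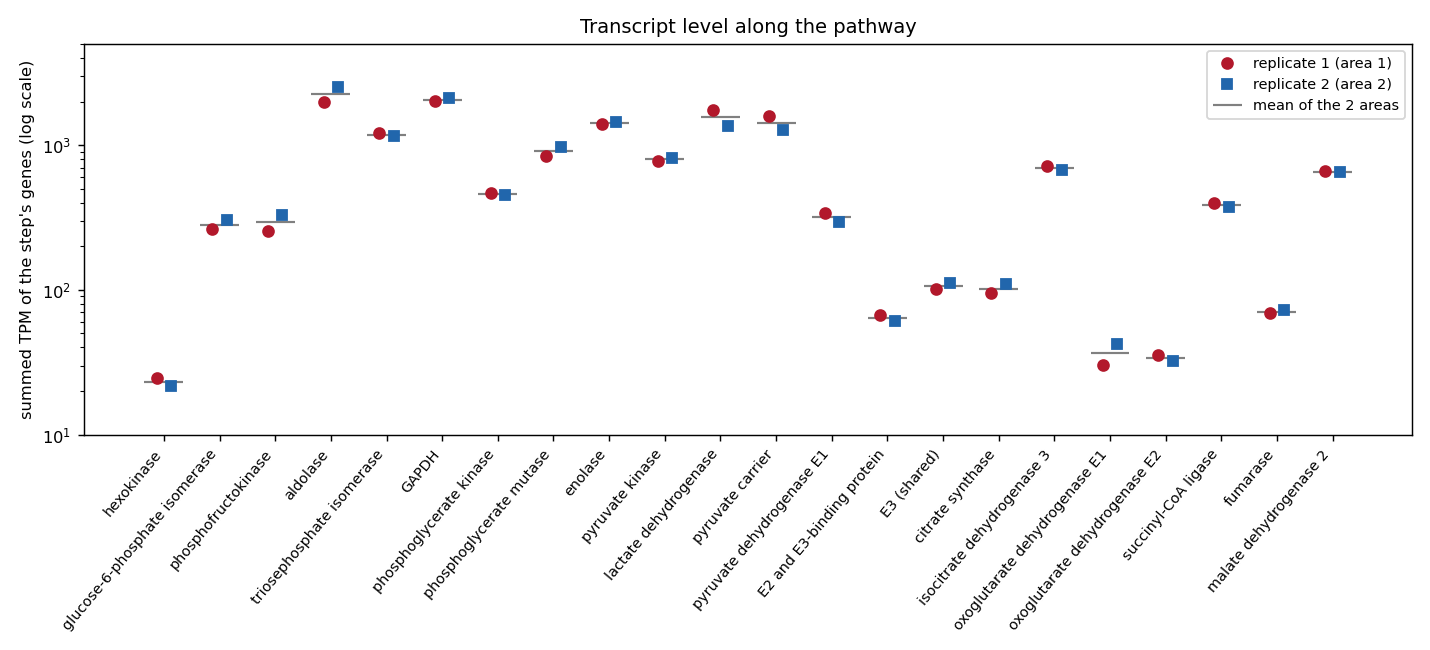
Summed TPM of the genes of each step on a log scale (y axis), in pathway order (x axis), with replicate 1 as red circles, replicate 2 as blue squares and the mean as a grey bar. Levels run from 24.6 and 21.5 TPM at hexokinase to 2001 and 2523 TPM at aldolase, and fall again to 30.4 and 42.2 TPM at oxoglutarate dehydrogenase E1.

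Levels within the cycle were uneven from step to step. None of its 12 genes passed 1.5-fold between the areas, beside 26.7% of all genes tested. Ogdh, Suclg2 and Idh2 differed most, all lower in replicate 1. Cs, citrate synthase, which joins acetyl-CoA to oxaloacetate, had 94.8 TPM in replicate 1 and 109 TPM in replicate 2. The 3 subunits of the NAD-linked isocitrate dehydrogenase were close to one another: Idh3a, the catalytic subunit, had 229 and 212 TPM, Idh3b 262 and 224 TPM, and Idh3g 232 and 240 TPM. None of these subunits held less than 31.3% or more than 36.2% of the enzyme's TPM in either area. Idh2, the NADP-linked mitochondrial form, was low at 10.4 TPM in replicate 1 and 13.5 TPM in replicate 2.

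Ogdh, the E1 enzyme of the oxoglutarate dehydrogenase complex and a calcium-sensitive control point of the cycle, had 30.4 TPM in replicate 1 and 42.2 TPM in replicate 2, a count ratio of 0.748 (0.711 to 0.787). Dlst, the E2 enzyme of the same complex, had 35.3 TPM in replicate 1 and 32.3 TPM in replicate 2. Succinyl-CoA ligase makes ATP or GTP depending on its beta subunit. Suclg1, the shared alpha subunit, had 175 and 169 TPM, and Sucla2, the ATP-forming beta subunit, had 216 and 197 TPM. Suclg2, the GTP-forming one, had 4.69 TPM in replicate 1 and 6.66 TPM in replicate 2, so Sucla2 held 97.9% and 96.7% of the beta subunit TPM. By mean share only hexokinase was more one-sided among the 11 families, though in replicate 1 alone hexokinase was the less so. Fh1, fumarase, had 68.9 and 72.2 TPM, and Mdh2, the mitochondrial malate dehydrogenase that closes the cycle, had 661 and 651 TPM. Outside the 42, the succinate dehydrogenase subunits of the cycle ranged from Sdha at 144 and 165 TPM to Sdhb at 427 and 429 TPM.

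The malate-aspartate shuttle was represented by abundant cytosolic enzymes. Mdh1, the cytosolic malate dehydrogenase (ENSMUSG00000020321.11, chromosome 11, 21556787 to 21572367), had 1656 TPM in replicate 1 and 1734 TPM in replicate 2. By mean TPM it was behind only Aldoa and Gapdh. A coding transcript of 549 bases held 28.8% of its expression in replicate 1 and 30.3% in replicate 2. Per length of the longest coding transcript, the setting chosen after seeing the data, Ldhb passed Mdh1, with means of 1001 and 969 CPM per kilobase. Got1, the cytosolic aspartate aminotransferase, had 408 and 426 TPM, against 90.1 and 81.3 TPM for the mitochondrial Got2. The cytosolic gene led both pairs: Mdh1 held 71.5% of malate dehydrogenase TPM in replicate 1 and 72.7% in replicate 2, and Got1 held 81.9% and 84.0% of the aminotransferase pair. Slc25a11, the oxoglutarate-malate carrier, had 125 and 132 TPM. Slc25a12, the aspartate-glutamate carrier of brain and muscle, had 76.1 and 70.2 TPM, and its liver counterpart Slc25a13 had 1.31 and 4.30 TPM.

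The NADPH-making enzymes were lower. Idh1, the cytosolic NADP-linked isocitrate dehydrogenase, had 31.4 TPM in replicate 1 and 23.8 TPM in replicate 2, a count ratio of 1.45 (1.34 to 1.57). With Idh2 lower in replicate 1, the Idh1 share of that pair was 75.1% in replicate 1 and 63.8% in replicate 2. Me1, the cytosolic malic enzyme, had 17.9 and 15.3 TPM. Me3, a mitochondrial malic enzyme outside the 42, had 74.2 and 75.4 TPM and held 75.1% and 75.5% of the TPM of the 3 malic enzymes.

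**Figure D3:**
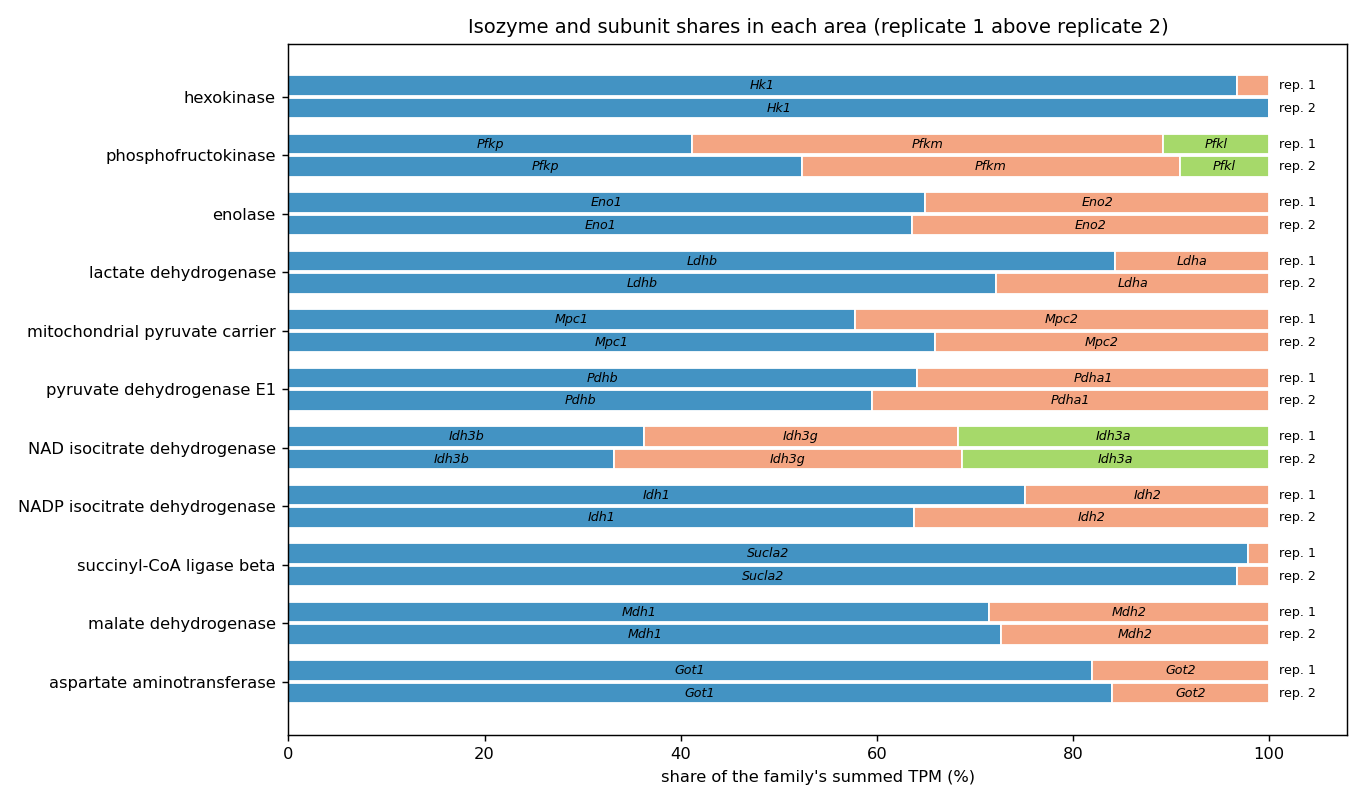
Share of each family's summed TPM (x axis, percent) held by its genes in 11 families (y axis), replicate 1 above replicate 2. The same gene leads in both areas in 9 families; Pfkm and Pfkp change places in phosphofructokinase and Idh3b and Idh3g in the NAD-linked isocitrate dehydrogenase, and the unlabelled slivers are Hk2 and Suclg2.

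By the median size of their ratios, the members differed less between the areas than all protein-coding genes, which were not matched to them for level. Ratios are of TPM + 1 in replicate 1 over replicate 2 on the log2 scale, which understates changes of low genes, and a size of 1.5-fold was used because 1 library on each side gives no p-value. Of 41 members with a mean of at least 1 TPM, 20 were higher in replicate 1 (48.8%), beside 45.8% of the 11828 protein-coding genes at that level. Beyond 1.5-fold, 2 members were higher in replicate 1, Mpc2 and Ldhb, beside 11.6% of all genes. Pfkp alone was lower by that much in replicate 1, beside 15.1% of all genes. In total 3 of 41 members (7.32%) passed 1.5-fold in either direction, beside 26.7% of all genes. At a mean of at least 20 TPM the count was 3 of 38 members (7.89%), beside 12.0% of 4409 genes. The median size of the log2 ratio was 0.13 for the members and 0.33 for all genes at 1 TPM, and 0.12 and 0.24 at 20 TPM. The members' distance to the background was smaller at the higher level, and it is given as a description, with no test.

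The groups leaned in different ways by small amounts. Of 15 glycolytic genes tested, 11 were lower in replicate 1, with a median log2 ratio of -0.07. Of 7 pyruvate entry genes, 6 were higher in replicate 1, with a median of 0.12. The 12 cycle genes were divided evenly, 6 higher and 6 lower, with a median of -0.02. The median of all 41 was -0.02, beside -0.05 for all genes tested, and its sign depends on the scaling: it was 0.07 with CPM (counts scaled to library size) and 0.04 with TMM-scaled counts. No direction is therefore read from medians of this size.

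The 3 members beyond 1.5-fold were Mpc2 at a log2 ratio of 0.62, Ldhb at 0.59 and Pfkp at -0.72. Ldhb lay just past the line of 0.58, and with TPM rescaled to nuclear genes it fell short of it while Mpc2 and Pfkp did not. The next members were Idh1 at 0.39 and Pdhb at 0.31 above 0, and Ogdh at -0.46, Ldha at -0.46, Suclg2 at -0.43, Idh2 at -0.35 and Aldoa at -0.33 below it. Parvalbumin, microglial and endothelial marker sums were higher in replicate 1. Somatostatin, oligodendrocyte, erythrocyte, pan-neuronal, excitatory and layer 5 sums were lower there, by the values given above. The astrocyte sum was also lower there, though its markers were divided. The part of these cell types in the differences of Ldhb, Mpc2, Pfkp and Ldha was not tested.

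**Figure D4:**
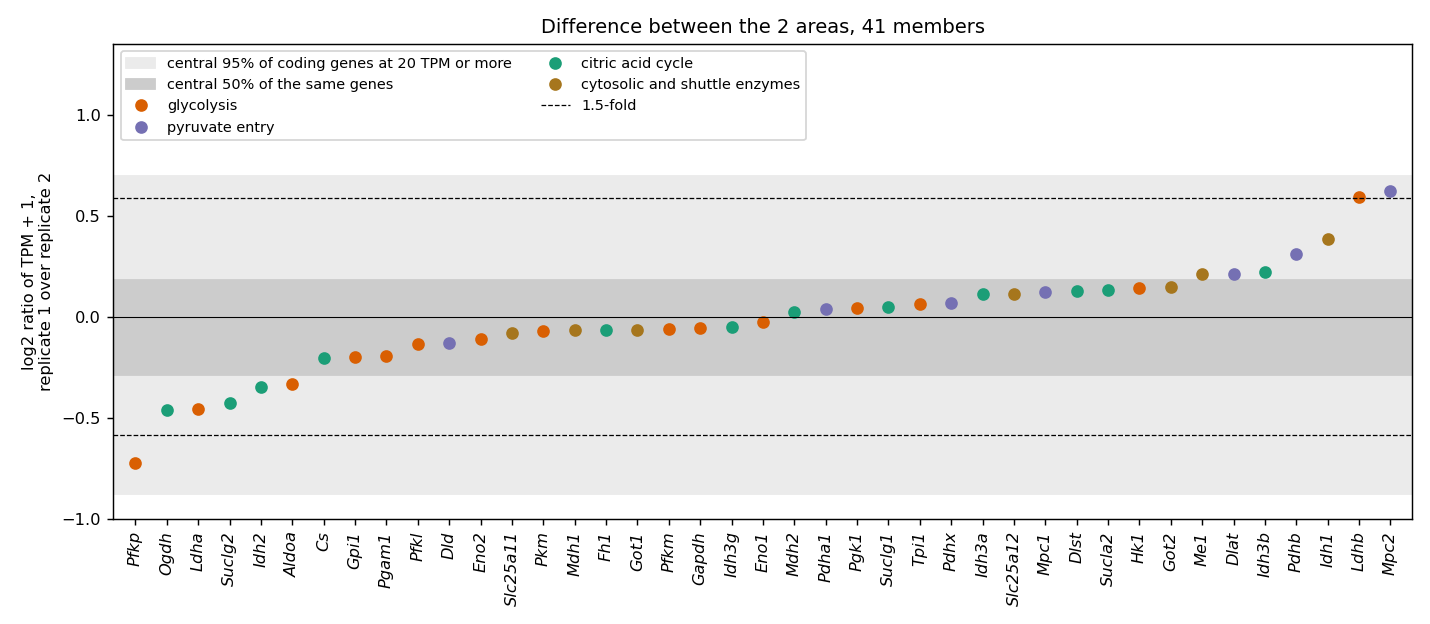
Log2 ratio of TPM + 1, replicate 1 over replicate 2 (y axis), of the 41 members with a mean of at least 1 TPM (x axis, in rising order), coloured by group; the grey bands hold the central 50% and 95% of 4409 protein-coding genes at 20 TPM or more, and the dashed lines mark 1.5-fold. Members run from -0.72 (Pfkp) to 0.62 (Mpc2), all inside the wider band of -0.88 to 0.70.

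Most members were read out from 1 transcript, and some from transcripts that are not full coding ones. In 25 of 41 members the same leading transcript held at least 90% of the gene's expression in both areas, by the deposited percentages. These include 7 members with only 1 listed transcript, whose share was fixed in advance. The share over all genes was not computed. Aldoa had 2 coding transcripts, at 85.9% and 12.2% in replicate 1 and at 78.5% and 19.9% in replicate 2. Ogdh showed a larger shift between 2 coding transcripts of similar length, 4127 and 4075 bases, which held 80.1% and 14.8% in replicate 1 and 62.0% and 33.4% in replicate 2. The higher Ogdh level of replicate 2 went with the shorter of these: it had 385 counts in replicate 1 and 1249 in replicate 2, while the longer one had 2113 and 2347.

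In 6 members, transcripts not classed as protein-coding held at least 10% of expression in both areas, a count for which no share over all genes was computed. Slc25a12 was the extreme case, with 80.9% in replicate 1 and 83.1% in replicate 2, mostly in 1 transcript of the nonsense-mediated decay class at 71.2% and 66.7%. Gapdh had 46.2% in replicate 1 and 39.1% in replicate 2 in a processed transcript of 483 bases, which took 7725 and 7028 of its counts. Mdh2 had 32.3% and 28.0% in a decay-class transcript, and Mpc2 had 30.8% and 27.9% in a processed transcript of 493 bases. Hk1 differed between the areas in this respect, since a coding fragment of 784 bases held 23.0% in replicate 1 and 1.98% in replicate 2. The Hk1 counts were not higher in replicate 1, with a ratio of 0.951 (0.891 to 1.02), although its TPM was. When counts were instead divided by the length of each gene's longest coding transcript, a setting chosen after seeing these values, Aldoa and Gapdh kept the top 2 places, Pfkp moved 5 places down and Slc25a12 3, and no other member moved by more than 1.

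Copies and overlapping genes add uncertainty to some levels. Transcripts of 13 members had a near-identical copy in another gene, aligned over at least 300 bases at 95% identity or more and over 80% or more of the copy. In 5 of them the copies held at least 1% of the gene's own counts in an area. Mpc1 was the most affected. Mpc1-ps, which differs from it at the 1 base shown above, was given 1601 counts in replicate 1 and 1377 in replicate 2. These equal 10.3% and 9.39% of the Mpc1 counts. By TPM the copy is larger beside the gene, at 322 against 917 TPM in replicate 1 and 268 against 843 TPM in replicate 2. In percent of counts Pgk1 followed with 7.25% and 9.24%, then Gapdh, with 83 copies in the annotation, at 6.55% and 6.28%. Pgam1 had 3.48% and 3.81%, and Eno1 had 1.31% and 1.62%. The kit's strand setting is not given in the sources used here, and 6 members share at least 5% of their exonic bases with another gene. Mpc1 shares 23.1% with 4930506C21Rik (176 and 222 counts), Pdha1 16.1% with Map3k15, Gpi1 11.5% with Gm26762, Pfkm 10.2% with Gm26513, and Slc25a11 8.92% with Rnf167 (2489 and 3179 counts). Pfkp shares 5.58%, 748 bases, with Pitrm1, a mitochondrial peptidase gene on the opposite strand. Pitrm1 had 852 counts in replicate 1 and 433 in replicate 2, against 6517 and 10707 for Pfkp. The leading Pfkp transcript, of 2679 bases, had 3525 counts in replicate 1 and 5736 in replicate 2.

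Genes around the pathway were mostly lower than its enzymes. The glucose transporters Slc2a1, the barrier and glial form, and Slc2a3, the neuronal form, had 14.3 and 17.0 TPM in replicate 1 and 16.3 and 12.9 TPM in replicate 2, and Slc2a4 had 0 counts. Of the 8 genes of glucose and lactate transport, 6 reached 1 TPM in both areas. Bsg, the chaperone of monocarboxylate carriers, was the highest, having 680 TPM in replicate 1 and 744 TPM in replicate 2. Its relative Emb was beyond 1.5-fold higher in replicate 1 (27.3 and 17.1 TPM), and the lactate carrier Slc16a1 was beyond 1.5-fold lower (3.36 and 6.54 TPM).

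The enzymes that set pyruvate dehydrogenase activity were moderate. Pdp1, a phosphatase that switches the complex on, had 58.8 TPM in replicate 1 and 66.0 TPM in replicate 2. The kinases that switch it off were led by Pdk2, at 31.0 and 47.7 TPM and beyond 1.5-fold lower in replicate 1, and Pdk3, at 33.4 and 31.8 TPM, with Pdk1 at 11.3 and 14.3 TPM and Pdk4 at 0.76 TPM in both. Of the 7 genes of the pentose phosphate pathway, which makes NADPH from glucose 6-phosphate, all reached 1 TPM in both areas. By the ratio of TPM + 1 none passed 1.5-fold, beside 26.7% of all genes tested. By scaled counts Pgls did, at 1.55-fold higher in replicate 1 (1.40 to 1.71). Taldo1, transaldolase, was the highest of the 7 at 111 and 133 TPM, while G6pdx, the entry enzyme, had 14.0 and 13.7 TPM.

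Adpgk, an ADP-dependent kinase of glucose outside the main route, was beyond 1.5-fold lower in replicate 1, at 3.12 and 7.39 TPM. The dicarboxylate carrier Slc25a10 (7.14 and 3.15 TPM) and Pck2, the mitochondrial phosphoenolpyruvate carboxykinase (3.03 and 1.63 TPM), were higher there by that much.

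Among 11 glycogen genes, 9 were at 1 TPM or more in each area and had a ratio, and 4 of these were counted at 1.5-fold, beside 26.7% of all genes, and 1 of the 4, Pgm2 (1.38 and 2.57 TPM), lay on the line itself. Pygm, the muscle glycogen phosphorylase that astrocytes also express, had 20.2 TPM in replicate 1 and 7.05 TPM in replicate 2. Gys1, glycogen synthase, went the other way, at 3.17 TPM in replicate 1 and 7.64 TPM in replicate 2. Pck1, the cytosolic enzyme of gluconeogenesis, had 0 counts in both areas, and a count of 0 allows up to 0.115 CPM in replicate 1 and 0.106 in replicate 2.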

How the data were processed

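RNA-seq libraries of 2 layer V areas were analysed. The deposited gene and transcript tables give expected counts, estimates of reads that need not be whole, TPM scaled by the authors over all features, a posterior mean TPM with a score for each bound of its interval, and for each transcript its percent share of its gene. Build mm10 and annotation M4 were used, per the deposited text files. The tables have the layout of RSEM; aligner and versions are not given in the sources used here. Symbols, classes and positions came from GENCODE M21 on the same assembly, in which all 42 genes matched. Depth was 26059117 and 28276843 expected counts, and intervals cover counting error only.

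The genes and lists were chosen with earlier results of these data known. All 42 may be named; of related lists the 4 most abundant, those beyond 1.5-fold and other isozymes may be named. Some genes of the related lists are not reported here. Ratios were log2(TPM + 1), replicate 1 minus replicate 2, over 11828 genes whose mean reached 1 TPM. Chi-square per degree of freedom between the libraries was 69.5 over 14131 genes summing to 50 counts or more, far from that of copies. Count ratios and shares have 95% Clopper-Pearson intervals. Copies were sought with BLAST 2.17.0. On rounded expected counts, edgeR 4.0.16 (R 4.3.3) gave TMM factors, with no test. Tables were handled with pandas 2.3.3 and numpy 2.4.6 in Python 3.11.15, intervals computed with scipy 1.17.1, and figures drawn with matplotlib 3.10.9. Simulated data with known changes and counting error only were used to check the ratios. Other spread between the libraries was not part of that check.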

Additional observations from a re-analysis of the deposited data

How the results depend on the processing

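The median log2 ratio of the 41 members, -0.02, changed sign under 4 alternatives: 0.066 with CPM, 0.0389 with TMM-scaled counts, 0.021 when centred on the median gene and 0.0362 with a trend in length and GC content removed. The cause was not tested. No member passed 2-fold, giving a count of 0, against 3 at 1.5-fold. The count at 1.5-fold was 2 with TPM of nuclear genes and 3 under the other planned settings. Without a filter, a setting added after seeing the data, it was 4, Hk2 being the fourth. The median TPM of the members, 185, was 239.5 with TPM rescaled to nuclear genes, which leaves spike-in and mitochondrial RNA out of the sum, and 175 to 195 with either library left out. The Pkm M1 share ran from 98.1% to 98.8% with either library left out. By counts, which are not scaled for length, Pdha1 took 54.9% of its pair, against 38.2% by TPM. The same gene led both areas in 9 families by TPM and in 10 by expected counts or per length of the longest coding transcript; Idh3a led its family in both areas by counts, and Pfkm its own per length. Adding near-identical copies lowered the Mpc2 share to 31.6%, against 38.1%. Ratios need both libraries, so leaving 1 out gave none. No paired analysis was possible because there was 1 group and no test. Depth limits Hk2, at 39 and 0 counts.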
